A study of Homo sapiens with 12 samples.

Results

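The genes described here are 10 that NF-kB signalling switches on, or that belong to its core. They are the subunit genes NFKB1, NFKB2 and RELB, the inhibitor genes NFKBIA and TNFAIP3, and the apoptosis inhibitor gene BIRC3. The others are the secreted and surface products TNFAIP6 and LTB, and the adhesion molecule genes VCAM1 and ICAM1. All 10 were taken by name, with all their probe sets, and each was represented by its brightest one. Of the 10, 9 had a probe set and all 9 were tested, among 10784 genes tested of 19775 with a probe set. No probe set carried BIRC3 as its single symbol in the annotation used, so it has no value here.

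HK-2, a human kidney line derived from proximal tubule epithelium and immortalized, was treated with Fk or with the control vehicle for 12 h or 48 h. The groups were Fk at 48 h, control at 48 h, Fk at 12 h and control at 12 h, with 3 Affymetrix arrays each and 12 in all. By the labels, the 3 arrays of each group are biological replicates; neither the full name behind Fk nor its dose is given in the sources used here. All groups shared a medium with 5 mM glucose, 36 ng/ml hydrocortisone, a glucocorticoid, and 10 ng/ml epidermal growth factor, with insulin, transferrin and selenite, and cells were seeded 24 h before treatment and treated at about 90% confluency. The line is a single one, so the replicates carry no spread between donors. Values are on the log2 scale of GCRMA (a background correction and normalization for Affymetrix arrays), where a difference of 1 is a doubling of signal.

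NF-kB is a family of paired transcription factors that IkB proteins hold in the cytoplasm until kinases mark the IkB for destruction. Among the genes it then turns on are its own inhibitors, so that the signal limits itself, and surface molecules that leukocytes bind. In the kidney tubule, cytokines and injury induce VCAM1 and ICAM1 through this pathway, and glucocorticoids are known to restrain it.

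Promoter windows are shown for the 5 members on which the results below turn, or which are the textbook feedback genes of the pathway. Each window, from RefSeq on GRCh38.p14, runs from 250 bases before the annotated start of transcription to 50 bases after it, and is printed 5′ to 3′ on the strand of the gene. Capitals mark matches to the kappaB consensus, searched as GGGRNWYYCC, on either strand. In TNFAIP6, which had no such match in its window, they mark a match to TGANTCA, the AP-1 consensus. Here R is A or G, W is A or T, Y is C or T and N is any base.
LTB, chr6:31582376-31582675, minus strand: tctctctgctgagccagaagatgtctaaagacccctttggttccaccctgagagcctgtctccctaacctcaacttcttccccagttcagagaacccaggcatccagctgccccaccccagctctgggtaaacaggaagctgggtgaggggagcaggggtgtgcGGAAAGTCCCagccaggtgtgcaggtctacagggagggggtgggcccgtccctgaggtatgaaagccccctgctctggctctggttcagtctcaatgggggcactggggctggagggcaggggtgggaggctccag
VCAM1, chr1:100719492-100719791, plus strand: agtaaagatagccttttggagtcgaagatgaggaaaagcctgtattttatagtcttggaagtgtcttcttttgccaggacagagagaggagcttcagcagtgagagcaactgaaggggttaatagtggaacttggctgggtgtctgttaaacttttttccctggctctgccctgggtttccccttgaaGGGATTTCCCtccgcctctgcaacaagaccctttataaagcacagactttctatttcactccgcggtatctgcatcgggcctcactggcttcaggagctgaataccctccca
NFKBIA, chr14:35404700-35404999, minus strand: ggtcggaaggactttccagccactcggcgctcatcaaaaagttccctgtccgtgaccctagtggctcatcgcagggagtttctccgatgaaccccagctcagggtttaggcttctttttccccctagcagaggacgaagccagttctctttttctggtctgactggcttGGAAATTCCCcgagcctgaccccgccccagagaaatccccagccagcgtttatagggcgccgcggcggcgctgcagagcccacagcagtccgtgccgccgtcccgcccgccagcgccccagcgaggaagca
TNFAIP3, chr6:137867009-137867308, plus strand: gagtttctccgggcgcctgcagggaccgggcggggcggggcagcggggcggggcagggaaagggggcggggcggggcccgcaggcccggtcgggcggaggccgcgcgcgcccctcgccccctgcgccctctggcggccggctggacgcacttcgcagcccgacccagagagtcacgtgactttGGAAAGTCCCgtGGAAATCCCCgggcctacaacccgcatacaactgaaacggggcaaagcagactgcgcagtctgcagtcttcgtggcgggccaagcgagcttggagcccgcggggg
TNFAIP6, chr2:151357342-151357641, plus strand: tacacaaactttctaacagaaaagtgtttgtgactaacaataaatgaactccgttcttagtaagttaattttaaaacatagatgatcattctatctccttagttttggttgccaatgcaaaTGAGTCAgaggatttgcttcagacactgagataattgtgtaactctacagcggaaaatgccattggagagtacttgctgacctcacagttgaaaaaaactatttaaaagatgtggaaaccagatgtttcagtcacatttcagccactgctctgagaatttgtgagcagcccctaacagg
The match in LTB lay 86 to 77 bases before the start, the one in VCAM1 62 to 53 and the one in NFKBIA 81 to 72. TNFAIP3 had 2 matches, at 67 to 58 and 55 to 46 bases before the start, and the TGANTCA match of TNFAIP6 lay at 129 to 123. Windows were found for 9 of the 10 members, 13 windows in all. Of these 13 windows 9 held a kappaB match, and 7 of the members had a match in at least 1 window. The members were taken as known NF-kB genes, so the share below is set beside these counts as a description and not a test. Of all 35116 windows of this length in the table, 5.91% held a kappaB match and 7.71% a TGANTCA match. The windows shown were chosen with the results below known, and the TGANTCA search was added after the TNFAIP6 window had been read. RELB was not in the table.

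Array medians ran from 2.85 to 2.94, below the level of 4 used for testing, and upper quartiles from 6.90 to 7.16. The highest median and the lowest upper quartile were both on replicate 3 of Fk at 12 h. The replicate 3 array of Fk at 12 h stood apart: it correlated with its group mates at 0.942 to 0.946, against 0.994 between replicates 1 and 2, and 1660 genes lay more than 1 log2 unit from their mean. Values without it are given beside a number of the results that it enters. At 48 h, replicates 1 and 3 differed along the same axis in both treatments: deviations from the group mean correlated at 0.798 between the replicates 1 and 0.606 between the replicates 3 of Fk and control. Keratin and cadherin genes of epithelium were present, and 7 of 12 measured epithelial markers met the level required for testing, a signal of 4 or more on 3 or more arrays. The proximal tubule genes ANPEP, AQP1, LRP2 and CUBN stayed below 4 on every array. On the same list, GGT1 ran from 3.75 to 4.14 and was not tested, and PAX8 ran from 9.96 to 11.44. None of 8 leukocyte markers reached that level, with 3.43 for CD79A as the highest array of any. Of 8 endothelial markers, 2 did, PECAM1 and EGFL7, while CDH5 (2.35 to 2.40), VWF (2.33 to 2.40) and KDR (2.64 to 2.73) stayed below the array medians. Of 6 fibroblast and pericyte markers 4 met the level, among them DCN and COL1A1. In cultures of 1 cell line, fewer cells and less RNA per cell cannot be told apart.

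At 12 h, LTB and VCAM1 had lower signals in Fk than in control cultures on every array, and no other member had a difference as large as 0.5. LTB encodes lymphotoxin beta, which anchors lymphotoxin alpha on the cell surface as a ligand of the lymphotoxin beta receptor. Its signals were 6.72, 6.43 and 6.56 in Fk cultures, against 8.01, 7.51 and 7.98 in control cultures. The groups were apart by more than their own ranges. The difference was -1.27 ± 0.28 (SE, n = 3 per group), a 2.41-fold lower signal, with a 95% interval from -1.90 to -0.64 (limma adjusted p = 0.575).

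VCAM1 encodes a vascular and epithelial adhesion molecule that binds integrins of lymphocytes and monocytes. It had signals of 5.95, 6.03 and 4.69 in Fk cultures at 12 h, against 6.31, 6.31 and 7.27 in control cultures. The groups did not overlap, but the gap rests largely on the third array of each group, which lay low in Fk and high in control. The difference was -1.07 ± 0.38, with an interval from -1.91 to -0.23 (limma adjusted p = 0.673). Without Fk_12h replicate 3 it was -0.64 ± 0.31, and the interval then included 0 (-1.34 to 0.06). LTB was -1.26 ± 0.33 without that array. Leukocytes also express LTB. Their 8 measured markers had summed log2 signals of 5.44 to 5.47 in Fk and 5.43 to 5.46 in control cultures at 12 h. All came from genes under the level for testing, so the sums cannot decide on the source of LTB, which was not tested.

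NFKBIA encodes IkB-alpha, the inhibitor that NF-kB resynthesises first. Its signals were 10.54, 10.48 and 10.29 in Fk cultures at 12 h, against 10.89, 10.58 and 10.96 in control cultures. The highest Fk array lay just below the lowest control array. The difference was -0.37 ± 0.29, with an interval from -1.01 to 0.27, and -0.29 ± 0.33 without Fk_12h replicate 3. TNFAIP3, which encodes a ubiquitin-editing enzyme that shuts off signalling from the TNF receptor, had 7.23, 6.38 and 7.78 in Fk and 7.87, 6.80 and 7.69 in control cultures. Its groups overlapped widely and the difference was -0.32 ± 0.42, with -0.65 without Fk_12h replicate 3, +0.06 without Fk_12h replicate 2 and -0.65 without control_12h replicate 2.

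The subunit genes differed little at 12 h. NFKB1, whose product is processed to a DNA-binding subunit, averaged 8.67 ± 0.11 in Fk and 8.81 ± 0.24 in control cultures (SD, n = 3 each). NFKB2, the precursor subunit of the non-canonical branch, was the one member with a positive value: its signals were 7.41, 7.36 and 6.75 in Fk and 6.98, 6.88 and 6.97 in control cultures. Here replicates 1 and 2 of Fk lay above every control array and replicate 3 lay below them. The difference was +0.23 ± 0.22, or +0.44 ± 0.20 without Fk_12h replicate 3. A dimmer probe set of the gene gave -0.02 with all arrays. It read 6.48, 6.23 and 4.98 in Fk and 5.98, 5.75 and 6.03 in control cultures, so replicate 3 of Fk was low there too. RELB, the partner of the processed NFKB2 product, averaged 4.84 ± 0.17 in Fk and 5.05 ± 0.36 in control cultures. TNFAIP6, a secreted hyaluronan-binding protein gene induced by TNF and IL-1, averaged 8.56 ± 0.23 in Fk and 8.67 ± 0.42 in control cultures. ICAM1, the ligand of leukocyte beta-2 integrins, had -0.22 ± 0.16, or -0.12 ± 0.16 without Fk_12h replicate 3, and its other probe sets gave +0.22 and -0.10.

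By limma, 0 of 9 members passed at an adjusted p of 0.05 at 12 h, and 0% of all genes tested did. LTB and VCAM1, 2 of 9 members, had an unadjusted p under 0.05, against 6.71% of all genes. The arrays of both groups were fully separated for 3 of 9 members, all of them lower in Fk (LTB, VCAM1 and NFKBIA), and this held for 16.4% of all genes, 6.49% lower and 9.91% higher. The median over the members was -0.22, against +0.01 over all genes tested. The result for LTB depended on how the arrays were weighted. limma's default array weights, planned as an alternative, brought it past the threshold at -1.23 (adjusted p = 0.0116), with a weight of 0.0947 for Fk_12h replicate 3. That estimate of the weights did not reach its numerical tolerance, and it gave Fk_48h replicate 2 a weight of 21.6. A gene-by-gene estimate of the weights was therefore added after the calls under the default had been seen, and it too brought LTB past the threshold (-1.28, adjusted p = 0.0244). Over all settings run for LTB the value went from -1.43 to -0.62, the smallest when its dim second probe set, at 3.69 to 4.03, was averaged in.

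**Figure D1:**
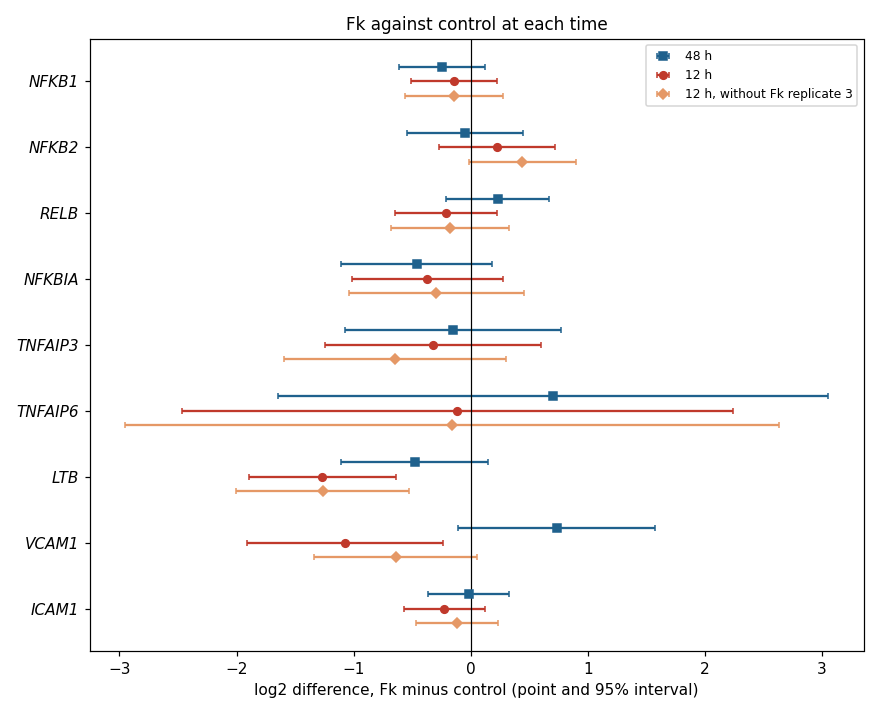
Difference between Fk and control cultures for each of the 9 measured genes, as log2 of Fk minus control (x axis), with points for the estimate and bars for the 95% interval of limma; squares are 48 h, circles 12 h and diamonds 12 h without Fk replicate 3. LTB at -1.27 and VCAM1 at -1.07 lie left of 0 at 12 h, and at 48 h VCAM1 lies right of it at +0.74.

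At 48 h the order of the groups in VCAM1 was the opposite one. It had signals of 5.48, 5.50 and 6.05 in Fk cultures, against 5.16, 4.58 and 5.09 in control cultures. Again no array overlapped, now with Fk higher. The difference was +0.74 ± 0.38, with an interval from -0.11 to 1.58 (limma adjusted p = 1.00), and without Fk_12h replicate 3, whose spread enters the common variance, +0.74 ± 0.28 with an interval from 0.11 to 1.36. VCAM1 was 1 of 9 members without overlap at 48 h, and the other 8 overlapped; 10.2% of all genes tested had none, 6.14% higher and 4.02% lower. The default array weights put VCAM1 past the threshold at +0.78 (adjusted p = 0.0248), and the gene-by-gene weights did not. LTB had 6.49, 6.37 and 5.66 in Fk and 7.21, 6.56 and 6.18 in control cultures. Both groups were lowest on replicate 3, the groups overlapped, and the difference was -0.48 ± 0.28. It ran from -0.71 without control_48h replicate 3 to -0.20 without control_48h replicate 1.

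The feedback inhibitors overlapped between Fk and control at 48 h. NFKBIA had 9.73, 10.30 and 9.54 in Fk and 10.01, 9.90 and 11.03 in control cultures. The single high array is replicate 3 of control, and the difference of -0.46 ± 0.29 was -0.10 without it. TNFAIP3 had -0.15 ± 0.42, with +0.45 for its other probe set and +0.11 without Fk_48h replicate 1. TNFAIP6 had +0.70 ± 1.06, with -0.42 without Fk_48h replicate 3 and +1.86 without control_48h replicate 3.

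For the subunits and ICAM1, intervals at 48 h were narrower. NFKB1 had -0.25 ± 0.17, with an interval from -0.61 to 0.12 (-0.35, adjusted p = 0.0395, with the default array weights only), NFKB2 -0.05 ± 0.22 and RELB +0.23 ± 0.20. ICAM1 had 9.24, 9.45 and 9.52 in Fk and 9.29, 9.46 and 9.51 in control cultures. Array by array the 2 groups were nearly the same, and the difference of -0.02 had an interval from -0.36 to 0.33. By limma 0 of 9 members passed, 0 stood at an unadjusted p under 0.05, and 0% and 5.18% of all genes did. The median over the members was -0.05, against +0.02 over all genes tested.

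The change of the Fk effect between the times was tested directly. For VCAM1 the effect was +0.74 at 48 h and -1.07 at 12 h, a difference of +1.81 ± 0.54 with an interval from 0.62 to 3.00 (limma unadjusted p = 0.00666, adjusted p = 0.996). It was +1.38 ± 0.42 without Fk_12h replicate 3. Arrays that did not overlap at both times, in opposite directions, were found for 0.408% of all genes tested, 44 in number, and for 1 of 9 members. That member, VCAM1, was singled out by this same pattern, so the share is not independent support for it. For LTB the difference between the effects was +0.79 ± 0.40, with an interval from -0.10 to 1.68, and +0.79 ± 0.44 without Fk_12h replicate 3. The other members had differences from -0.27 to +0.82, and 0 of 9 members passed, as did 0% of all genes. VCAM1, 1 of 9 members, had an unadjusted p under 0.05, against 3.31% of all genes. With the default array weights VCAM1 (+1.41, adjusted p = 0.0325) and LTB (+0.97, adjusted p = 0.0404) passed; with the gene-by-gene weights neither did.

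**Figure D2:**
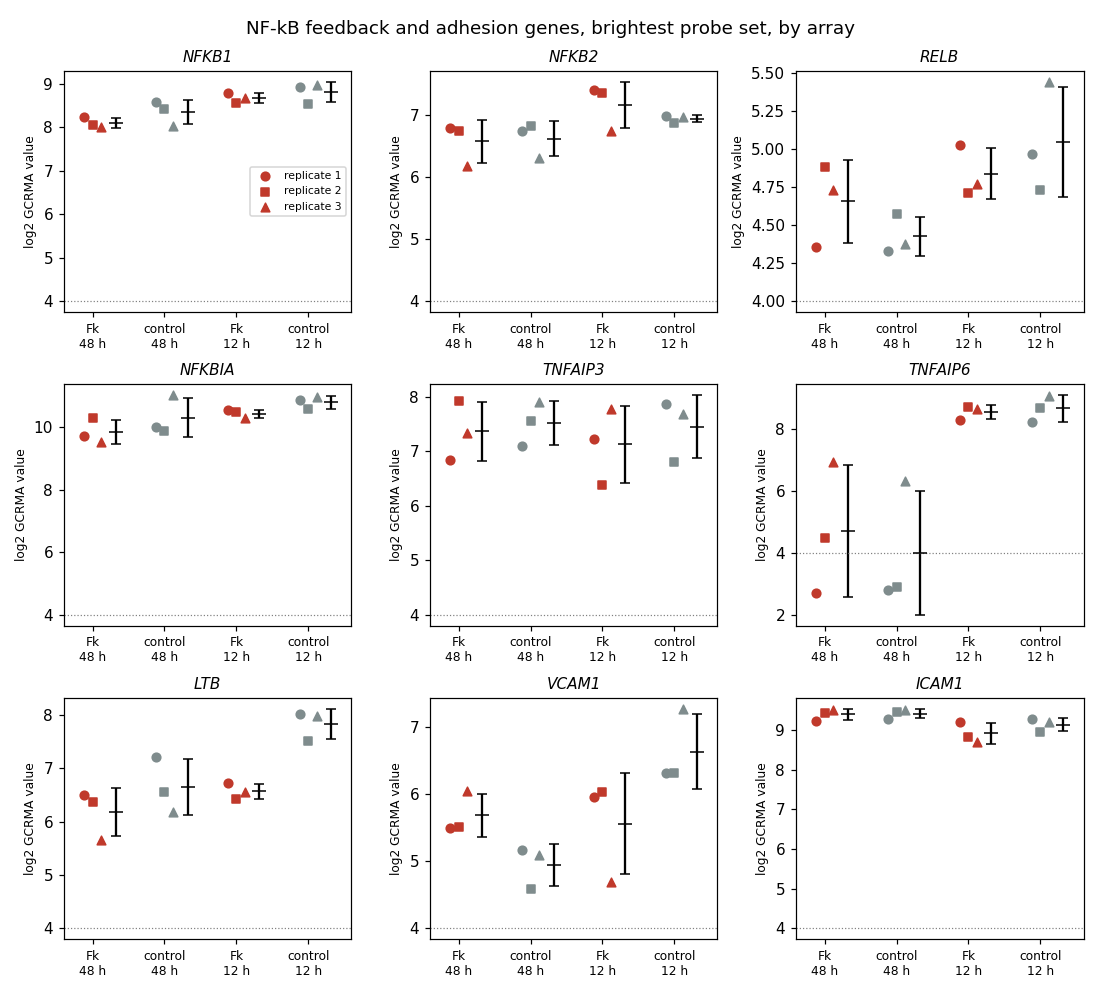
Signal of the brightest probe set of each of the 9 measured genes (y axis, log2 GCRMA value) on every array, by group (x axis), with a marker shape for each replicate and a bar for the mean and SD of the 3 arrays; the dotted line is the level of 4 used for testing. By group means, VCAM1 in control cultures is highest at 12 h and lowest at 48 h with both Fk groups between, and TNFAIP6 falls below 4 on 3 of the 6 arrays at 48 h.

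Time in culture was compared within each treatment. In control cultures, TNFAIP6, VCAM1, LTB and RELB were lower at 48 h than at 12 h and passed the test, 4 of 9 members, where 21.5% of all genes tested passed, 10.9% lower and 10.6% higher. The control arrays at 12 h are those of the Fk comparison at that time, so the values of the 2 comparisons are not independent. Arrays of the 2 times did not overlap for 6 of 9 members, 5 lower and ICAM1 higher, against 50% of all genes, 24.9% lower and 25.1% higher. An unadjusted p under 0.05 was found for 5 of 9 members and 36.4% of all genes. The median over the members was -0.49, against +0.01 over all genes.

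TNFAIP6 had the largest change of the members. It had 2.81, 2.91 and 6.32 in control cultures at 48 h, against 8.23, 8.69 and 9.08 at 12 h, a difference of -4.65 ± 1.06 (SE) with an interval from -7.01 to -2.30 (limma adjusted p = 0.0136). In Fk cultures it had 2.71, 4.48 and 6.95 at 48 h, against 8.30, 8.72 and 8.65 at 12 h, a difference of -3.84 ± 1.06 (adjusted p = 0.0272). In both treatments the replicate 3 array at 48 h stayed highest, and the lowest arrays lay near the array medians, so the size of the fall is bounded by the floor. Its second probe set gave -4.77 in control and -4.16 in Fk cultures. With only replicates 1 and 2 at 48 h, an alternative chosen after seeing the data, the values were -5.81 in control (adjusted p = 3.85e-04) and -4.96 in Fk cultures (adjusted p = 6.02e-04).

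VCAM1 in control cultures had 5.16, 4.58 and 5.09 at 48 h, against 6.31, 6.31 and 7.27 at 12 h, a 3.22-fold lower signal with a difference of -1.69 ± 0.38 (limma adjusted p = 0.0129). In Fk cultures the difference was +0.12 ± 0.38, or -0.31 ± 0.31 without Fk_12h replicate 3. LTB in control cultures had -1.19 ± 0.28 at 48 h against 12 h, 2.28-fold lower (adjusted p = 0.0162), and -0.40 ± 0.28 in Fk cultures. The tests of the difference between these time courses are those of the change in the Fk effect given above, and neither gene passed. For RELB the change was -0.62 ± 0.20 in control (adjusted p = 0.0476) and -0.18 ± 0.20 in Fk cultures.

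In Fk cultures 3 of 9 members passed at 48 h against 12 h: TNFAIP6 and NFKB1 were lower and ICAM1 was higher, where 23.2% of all genes passed, 11.7% lower and 11.5% higher. The arrays of the 2 times did not overlap for 3 of 9 members, NFKB1 and TNFAIP6 lower and ICAM1 higher, against 38.7% of all genes, 19.7% lower and 19% higher. An unadjusted p under 0.05 was found for 4 of 9 members and 37.7% of all genes. The median over the members was -0.40, against +0.02 over all genes tested. NFKB1 had 8.23, 8.05 and 8.01 at 48 h, against 8.78, 8.55 and 8.66 at 12 h. Every late array lay below every early one, with a difference of -0.57 ± 0.17 (limma adjusted p = 0.0323), and in control cultures it was -0.47 ± 0.17 (adjusted p = 0.0666). ICAM1 had +0.48 ± 0.16 in Fk (adjusted p = 0.0482) and +0.28 ± 0.16 in control cultures. Its other probe sets gave +0.09 and -0.01 in Fk cultures, so the rise was seen on 1 of 3 probe sets. NFKB2 had -0.59 ± 0.22 in Fk (adjusted p = 0.0790), or -0.81 ± 0.20 without Fk_12h replicate 3 (adjusted p = 0.0203). A dimmer probe set gave -0.06 in Fk cultures with that array kept. It read 6.26, 5.87 and 5.36 at 48 h, against 6.48, 6.23 and 4.98 at 12 h, the last on Fk_12h replicate 3. NFKBIA had -0.58 ± 0.29 in Fk and -0.49 ± 0.29 in control cultures. Without control_48h replicate 3, its high array, the control value was -0.85 ± 0.22 and passed (adjusted p = 0.0214). TNFAIP3 had +0.23 ± 0.42 in Fk and +0.06 ± 0.42 in control cultures, and its other probe set gave +0.77 and +0.14.

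Several of these calls lay close to the threshold. In control cultures all 4 ended without control_12h replicate 3, with TNFAIP6 at -4.45, VCAM1 at -1.37, LTB at -1.11 and RELB at -0.42, and all 4 without control_48h replicate 2, at -4.10, -1.51, -1.14 and -0.70. TNFAIP6 also ended without control_48h replicate 1 (-4.05), LTB without control_12h replicate 1 (-1.10), and RELB without any of control_12h replicate 1, control_48h replicates 1 and 3, Fk_12h replicates 1 and 2 and Fk_48h replicates 2 and 3. In Fk cultures NFKB1 ended without Fk_12h replicates 1 or 2 or any Fk_48h replicate (-0.64 to -0.51), and TNFAIP6 without any Fk_12h replicate or Fk_48h replicates 1 or 2 (-3.97 to -2.84). ICAM1 ended without any single array other than Fk_12h replicate 1 (+0.38 to +0.56). Without Fk_12h replicate 3, 2 of 9 members passed in Fk cultures, NFKB1 and NFKB2.

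**Figure D3:**
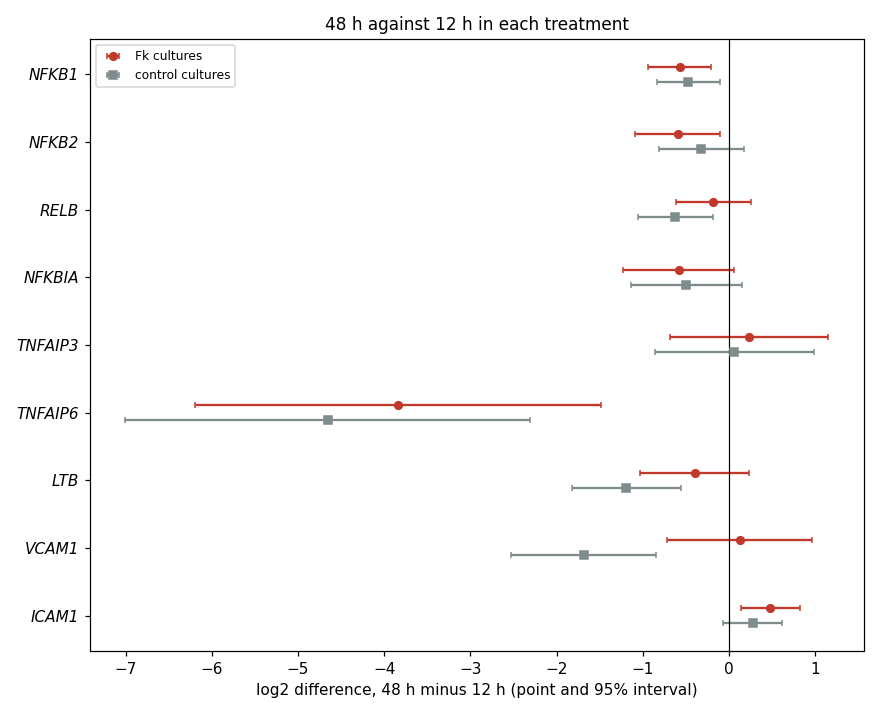
Difference between 48 h and 12 h for each of the 9 measured genes, as log2 of 48 h minus 12 h (x axis), in Fk cultures (circles) and control cultures (squares), with bars for the 95% interval of limma. TNFAIP6 lies far to the left in both treatments, and VCAM1 lies left of 0 in control cultures (-1.69) and near 0 in Fk cultures (+0.12).

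The rest of the pathway was described with lists of ligands and receptors, kinases and adaptors, subunits and IkB proteins, negative regulators, further target genes and adhesion molecules. The inducing ligands were near the floor of the array: TNF ran from 1.90 to 1.92, LTA, the partner of LTB, from 2.26 to 2.29, IL1A from 2.48 to 2.74 and IL1B from 2.98 to 3.22 over all 12 arrays. Of 23 ligand and receptor genes, 9 were tested, all of them receptors or receptor chains. None passed for Fk at either time. The interleukin-1 receptor gene IL1R1 had 5.96, 6.18 and 7.28 in Fk cultures at 12 h, against 4.86, 5.21 and 4.98 in control cultures, without overlap. Its difference was +1.46 ± 0.35 (limma adjusted p = 0.575), and +1.05 ± 0.29 without Fk_12h replicate 3. The double-stranded RNA receptor gene TLR3 had +0.86 ± 0.36 at 12 h, or +0.81 ± 0.41 without that array, and IL1RAP, the co-receptor of IL1R1, +0.53 ± 0.19 at 48 h (adjusted p = 0.828).

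Over time, 3 of 9 receptor genes passed in control and 4 of 9 in Fk cultures, against 21.5% and 23.2% of all genes tested. IL1RAP rose by +1.17 ± 0.19 in Fk and +0.70 ± 0.19 in control cultures, and EGFR, the receptor of the growth factor in the medium, by +0.74 ± 0.19 in Fk and +0.77 ± 0.19 in control cultures. CD40, a TNF receptor family member, fell by 0.56 in Fk and by 0.50 in control cultures. IL1R1 fell by 1.52 in Fk cultures (adjusted p = 0.0139).

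Among kinases and adaptors, 20 of 27 genes were tested and 0 passed for Fk at either time. BIRC2, a ubiquitin ligase of the TNF receptor complex, had -0.52 ± 0.29 at 12 h. It read 10.44, 10.39 and 9.24 on the Fk arrays and 10.56, 10.52 and 10.55 on the control arrays, and the value was -0.12 ± 0.19 without Fk_12h replicate 3. Over time 6 of 20 passed in Fk and 5 of 20 in control cultures, against 23.2% and 21.5% of all genes tested. RBCK1, a subunit of the linear ubiquitin ligase complex, rose by +1.47 ± 0.23 in Fk and +1.27 ± 0.23 in control cultures, and TAB3, an adaptor of the kinase TAK1, by +0.61 ± 0.13 in Fk and +0.55 ± 0.13 in control cultures. MYD88, the adaptor of Toll-like and interleukin-1 receptors, fell by 1.04 in Fk and by 0.93 in control cultures, and UBE2N, a ubiquitin-conjugating enzyme, by 0.75 in Fk and by 0.86 in control cultures. MAP3K14, the kinase of the non-canonical branch, fell by 0.92 in Fk cultures (adjusted p = 0.0324).

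The subunits and IkB proteins outside the 10 members had 0 of 5 tested genes past the threshold in any of the comparisons, with the arrays weighted equally. RELA, the main activating subunit, had -0.17 ± 0.15 for Fk at 48 h and -0.10 ± 0.15 at 12 h. REL had -0.51 ± 0.26 for Fk at 48 h and +0.08 ± 0.26 at 12 h, where it was -0.23 ± 0.20 without Fk_12h replicate 3. NFKBIZ, an inducible nuclear IkB protein, had +0.46 ± 0.77 at 48 h and -1.11 ± 0.77 at 12 h. Its 12 h arrays read 12.26, 12.48 and 8.75 in Fk and 12.28, 12.36 and 12.19 in control cultures, and without replicate 3 of Fk the value was +0.10 ± 0.20. The spread of that array also enters the common variance. Without Fk_12h replicate 3, the 48 h values were -0.51 ± 0.18 for REL and +0.46 ± 0.18 for NFKBIZ, and neither passed.

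Of the negative regulators, 0 of 11 passed for Fk at either time. In control cultures TAX1BP1, a partner of TNFAIP3, rose by +0.83 ± 0.18 and N4BP1 by +0.49 ± 0.12, while TNIP1, another partner of TNFAIP3, fell by 0.46, 3 of 11 in all. In Fk cultures TAX1BP1 alone passed (+0.88 ± 0.18), 1 of 11. Of all genes tested, 21.5% passed over time in control and 23.2% in Fk cultures. Among the further target genes 0 of 17 passed for Fk, with PLK3, a stress-responsive kinase, at +1.08 ± 0.36 at 48 h (adjusted p = 0.751). Over time 3 of 17 passed in Fk and 2 of 17 in control cultures, against 23.2% and 21.5% of all genes tested. The complement gene CFB rose by +2.07 ± 0.33 in Fk and +2.21 ± 0.33 in control cultures, the cytokine gene IL32 fell by 0.80 in Fk and by 1.05 in control cultures, and PLK3 rose by +1.64 ± 0.36 in Fk cultures.

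Other adhesion molecules had 0 of 13 genes past the threshold for Fk, with medians of +0.09 at 48 h and +0.14 at 12 h. CD58, the ligand of the T cell receptor CD2, had +0.45 ± 0.18 at 48 h and +0.30 ± 0.18 at 12 h. Over time 4 of 13 passed in Fk and 5 of 13 in control cultures, against 23.2% and 21.5% of all genes tested. ICAM3 fell by 1.17 in Fk and by 1.28 in control cultures, and MCAM by 0.40 in Fk and by 0.46 in control cultures. CD58 fell by 0.67 in control cultures. JAM2, a junctional adhesion molecule gene, rose by +0.96 ± 0.30 in Fk and +1.40 ± 0.30 in control cultures. The neural adhesion molecule gene L1CAM rose by +0.89 ± 0.23 in Fk and +1.04 ± 0.23 in control cultures. E-selectin (SELE), an endothelial NF-kB target, lay between 2.65 and 2.75 on all arrays.

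Without Fk_12h replicate 3, every list gene named above as risen or fallen in Fk cultures over time still passed, and 0 list genes passed for Fk at either time. The list counts for Fk depended on the array weights as those of the members did. At 48 h the default weights called 2 of 5 subunit and IkB genes, 2 of 11 negative regulators, 3 of 20 kinases and adaptors, 2 of 9 receptors, 5 of 17 further targets and 6 of 13 adhesion genes, and the gene-by-gene weights called 1 adhesion gene. At 12 h the default weights called 1 negative regulator, 2 kinases and adaptors and 1 receptor, and the gene-by-gene weights 1 receptor. Of all 10784 genes tested, the default weights called 2484 at 48 h and 472 at 12 h. The gene-by-gene weights called 94 of them at 48 h and 156 at 12 h. Whether list genes were called more often than other genes was not tested.

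**Figure D4:**
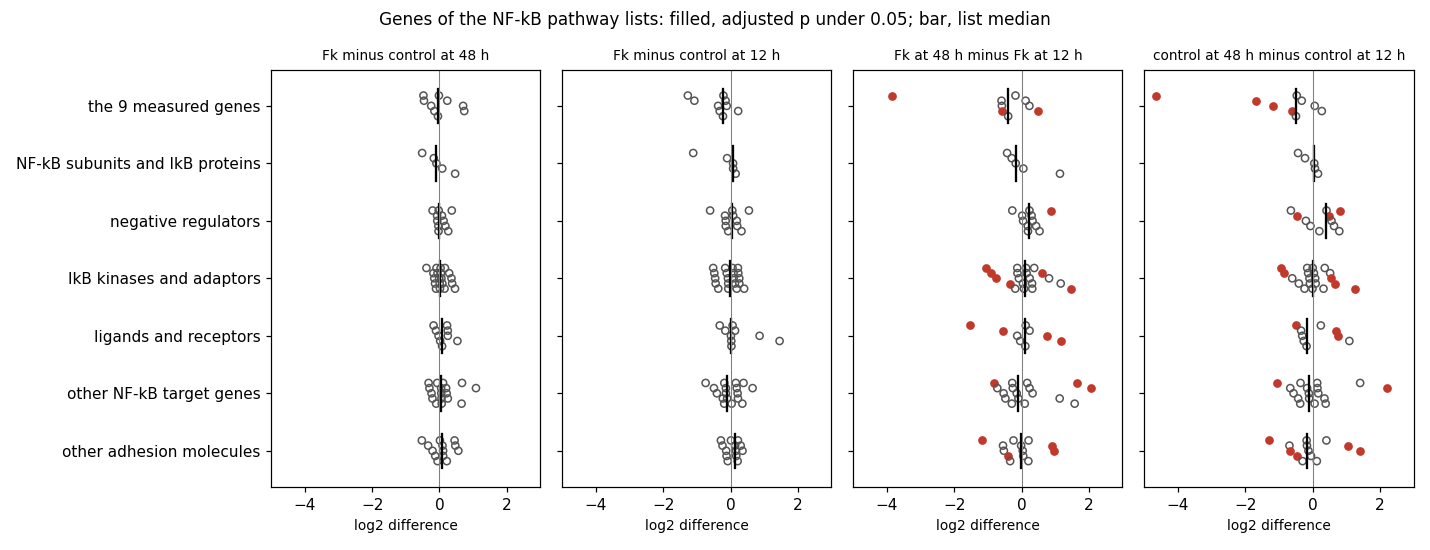
Log2 differences (x axis) of the tested genes of the members and of each pathway list (y axis) in 4 comparisons, 1 circle per gene, filled where the adjusted p is under 0.05, with a bar at the median of each list. With equally weighted arrays, no circle is filled for Fk minus control at 48 h or 12 h, and filled circles lie on both sides of 0 for 48 h minus 12 h.

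Among all tested genes, those whose pattern over the 12 arrays lay nearest to a member were sought for the members whose SD over arrays was over 0.5. Likeness was the root mean square difference of log2 values after the mean of each gene was taken off. LTB, with an SD of 0.73, lay nearest to RRAD (0.28) and SLC38A5 (0.35), VCAM1 (0.77) to ELFN2 (0.36) and AHNAK (0.37), TNFAIP3 (0.51) to CELF2 (0.32) and RABGAP1L (0.32), and TNFAIP6 (2.57) to SLN (0.69) and ORC1 (0.91). These distances share arrays and normalization and are given as a description only.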

How the data were processed

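The deposited values are log2 values per probe set from Affymetrix arrays, made by the authors with GCRMA per the submitters' processing notes; the log2 scale was read from their range. The GCRMA version and which arrays were normalized together are not given in the sources used here. Of 54675 probe sets, 41097 carried 1 gene symbol, 1801 several and 11777 none. Genes were represented by their brightest probe set with 1 symbol and tested where it reached 4 on at least 3 arrays.

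Group means were fitted over all 12 arrays with limma 3.58.1 (R 4.3.3), using eBayes (residual df 8, prior df 2.44). Tests were two-sided, and p-values were adjusted by Benjamini-Hochberg across the 10784 genes, with 0.05 as the threshold. Of 25 alternatives, 23 were planned, 12 of which left out 1 array. The 2 others were added after seeing the data: gene-by-gene array weights, added because limma's default weights did not converge and after their calls were known, and the 48 h groups without their replicates 3. Results of both weightings are given. The members and lists were chosen with earlier results of these data known. All members were named; from the 10 lists up to 4 genes called in each direction, or the 2 with the smallest p, could be named. The test was checked on simulated data. Figures used matplotlib 3.10.9.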

Additional observations from a re-analysis of the deposited data

Results flagged for a closer look

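VCAM1 was singled out because all Fk arrays lay above all control arrays at 48 h and below them at 12 h. The Fk effect at 48 h minus the Fk effect at 12 h was +1.81 ± 0.54 (limma adjusted p = 0.996), and +1.38 without Fk_12h replicate 3, on which VCAM1 read 4.69 against 5.95 and 6.03 on the other Fk arrays of that time. The gene has 1 probe set on the array.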

How the results depend on the processing

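No member passed for Fk at 12 h, for Fk at 48 h or for the difference of the effects, except with array weights. limma's default weights, which did not converge, called 1 member at 12 h (LTB), 2 at 48 h (NFKB1, VCAM1) and 2 for the difference (LTB, VCAM1); gene-by-gene weights, chosen after those calls were known, called 1, LTB at 12 h. Genes called at 12 h numbered 0, with 472 under default weights, 156 under gene-by-gene weights, 1 with the replicate block within time and 0 to 3 without single arrays. At 48 h they numbered 0, with 2484 and 94 under the 2 weightings, 1 without a filter, 4 with the mean of probe sets, 1 with only the groups compared and 0 to 1 without single arrays. For the difference, 0 became 620 under default weights. In control cultures over time 4 members passed, 6 with either weighting, 5 with repeated quantile normalization and 0 to 4 without single arrays. With probe sets not ending in _s_at or _x_at 0 passed. TNFAIP6, VCAM1 and LTB had no such probe set that met the level for testing, so of the called members only RELB was tested there. RELB ended without a filter, with those probe sets, with equal array medians, with eBayes trend and robust, with only the groups compared and with replicates 1 and 2 alone at 48 h, and was not tested under the stricter filter. NFKBIA gained a call with both weightings, without control_48h replicate 3 and with replicates 1 and 2 alone; NFKB1 gained one with both weightings and with quantile normalization. Of all genes 2314 passed, with 5430 and 4920 under the weightings and 1060 to 3438 without single arrays, the fewest without control_12h replicate 3. TNFAIP6 and ICAM1 had only probe sets ending in _s_at, so they were not tested with such probe sets left out. In Fk cultures over time 3 members passed, 5 with default and 4 with gene-by-gene weights, and 1 without the _s_at and _x_at probe sets. In these cultures 0 passed without a filter, 0 with only the groups compared and 0 to 2 without single arrays. Of all genes 2500 passed, 7048 and 5345 under the weightings, 831 with only the groups compared and 1297 to 2787 without single arrays.

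The replicate numbers were not taken to pair the samples, because the labels do not say that they mark a shared day or batch. Deviations of same-numbered Fk and control arrays correlated at 0.041 to 0.265 at 12 h. At 48 h they correlated at 0.798 for replicates 1, -0.025 for replicates 2 and 0.606 for replicates 3. Replicate 1 of either treatment and replicate 3 of the other correlated at -0.70 at 48 h. Deviations cancel out within a group, so this value is not independent of the ones for replicates 1 and 3. In both treatments, replicates 1 and 3 at 48 h differed along a shared axis. The replicate block within time called 0 members for Fk at either time. The replicate block over all 4 groups ended RELB in control (-0.62, adjusted p = 0.0617) and ICAM1 in Fk cultures (+0.48, adjusted p = 0.0659) and brought NFKB2 past the threshold there (-0.59, adjusted p = 0.0253).

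Signs turned for some differences, including that of TNFAIP6 for Fk at 48 h (+0.70 with all arrays), and the cause was not tested. With probe sets not ending in _s_at or _x_at, NFKB2 was -0.024 for Fk at 12 h, +0.022 at 48 h and +0.046 for the difference. For Fk at 48 h, the mean of probe sets gave TNFAIP3 +0.15 and ICAM1 +0.034, and equal array medians gave ICAM1 +0.0049. Default and gene-by-gene weights gave NFKBIA +0.24 and +0.083, TNFAIP3 +0.38 and +0.25, and ICAM1 +0.0060 and +0.00091, and replicates 1 and 2 alone gave NFKBIA +0.057 and TNFAIP3 +0.050. For the difference, NFKBIA was +0.54, +0.40 and +0.43 under these 3 settings. Over time they gave TNFAIP3 -0.022, -0.029 and -0.13 in control and VCAM1 -0.43, -0.40 and -0.061 in Fk cultures. Without single arrays, for Fk at 12 h TNFAIP3 ran from -0.65 to +0.056 and TNFAIP6 from -0.33 to +0.092. For Fk at 48 h NFKB2 ran from -0.21 to +0.15, TNFAIP3 from -0.43 to +0.11, TNFAIP6 from -0.42 to +1.86 and ICAM1 from -0.083 to +0.062. For the difference NFKB1 ran from -0.25 to +0.035, NFKBIA from -0.31 to +0.27, TNFAIP3 from -0.21 to +0.50 and TNFAIP6 from -0.30 to +1.97. Over time TNFAIP3 ran from -0.26 to +0.27 in control and -0.14 to +0.56 in Fk cultures, and VCAM1 from -0.31 to +0.36 in Fk cultures. The 95% interval of a member had a median half-width of 0.629 over the members, which limits the size of difference that could be told from 0.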

Other observations

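The IkB gene NFKBIZ and the ubiquitin ligase gene BIRC2, both chosen after their values were seen, were low on the same array. On Fk_12h replicate 3 NFKBIZ read 8.75, against 11.53 to 12.61 on the other 11 arrays, and BIRC2 read 9.24, against 9.90 to 10.58. IL1R1 was highest on this array at 7.28, against 4.40 to 6.18 on the others. Fk arrays 1 and 2 at 12 h read 5.96 and 6.18 for IL1R1 and were still above every control array of that time.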
